A study of Mus musculus with 32 samples.

Results

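Loss of 1 allele of U2af1 was examined in mouse fetal liver progenitors by setting 3 libraries of the heterozygous deletion against 3 libraries of the flox control, 6 of the 32 libraries of the series. The libraries were taken by genotype and batch in the labels, with no use of their expression values. All libraries were RNA-seq of untreated embryos at E14.5, in mid-gestation, from fetal liver cells sorted as Lin- cKit+ Sca1-, a gate that holds committed blood progenitors. The heterozygous group had the genotype Vav1-Cre/U2af1(wt/flox). The control had U2af1(flox/flox) and no Cre. The homozygous deletion, Vav1-Cre/U2af1(flox/flox), gave 3 further libraries for values set side by side, and embryos with Vav1-Cre alone gave 1. All of these were labelled batch A. Vav1-Cre is driven by a promoter active in blood cells from early development. Because the heterozygous embryos carried the Cre and the control did not, the loss of 1 allele and the presence of Cre cannot be told apart within the 6 libraries. The groups also differed in the number of floxed alleles, wt/flox against flox/flox, which cannot be told apart from these either. The labels do not say whether replicates were separate embryos or pools, so p-values measure the spread between these samples.

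U2AF1 is the small subunit of the U2AF heterodimer, which marks the 3′ end of introns for the spliceosome. It contacts the AG at the intron's end, while its large partner U2AF2 binds the polypyrimidine tract just upstream and SF1 binds the branch point. Fetal liver at this stage is the main site of blood formation, where progenitors mature around macrophages among hepatocytes. U2af1 was not analysed here, and the genotype labels were therefore not checked against its level. How completely the floxed allele was deleted was not measured.

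The libraries held 42810902 to 66089097 counts in the flox control and 58952338 to 71251200 in the heterozygous deletion. Kit, which encodes the receptor used in the sort, had 463, 548 and 549.8 CPM in the flox control (replicates 3, 4 and 5, the order used throughout) and 485, 518 and 535 CPM in the heterozygous deletion. Levels are in CPM, a count divided by the library total on the usual per-million scale, with totals scaled by TMM, the trimmed mean of M values, and are not divided by gene length. Replicates were not alike. On the first principal component of the 6 libraries, with 56.2% of the variance, flox control replicates 4 and 5 lay at 35.0 and 23.8, and the other 4 libraries lay between -25.8 and -0.09. On the other component, with 21.6%, flox control replicate 3 and heterozygous replicate 3 lay at -24.3 and -13.6, below the other 4 at 5.89 to 14.4. Immediate-early genes, which respond within minutes to handling or stimulation, were high in these same 2 libraries: Fos had 141, 33.6 and 38.9 CPM in the flox control and 182, 41.2 and 22.6 CPM in the heterozygous deletion. The median log2 difference of the immediate-early list, heterozygous minus flox control, was -0.17 with all libraries. It was 0.96 without flox control replicate 3 and -0.90 without heterozygous replicate 3. For several other lists the median is given below with and without 1 of these libraries.

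Of 12678 genes tested, 4 passed a Benjamini-Hochberg adjusted p under 0.05 by the quasi-likelihood test of edgeR, 0.0316% of all. DESeq2 called 99 genes, 0.734% of those it tested (0.171% higher and 0.564% lower), these 4 among them. The edgeR calls rest on few libraries: 0 genes passed when any 1 of 7 of the 9 fitted libraries was left out (582 to 1314 at an unadjusted p under 0.05), 269 passed without flox control replicate 3 and 37 without heterozygous replicate 3. With only the 2 compared groups in the fit 0 passed (1320 at an unadjusted p under 0.05). The 3 genes that fell were Ap1g2, Pdk1 and Ctse (0.0237% of genes tested), and Commd10 was the 1 gene that rose (0.00789%). Ap1g2 encodes a gamma subunit of an adaptor complex of intracellular vesicles, and Pdk1 encodes a kinase that inhibits pyruvate dehydrogenase. Ctse encodes cathepsin E, an aspartic protease abundant in red-cell precursors, and Commd10 encodes a member of the COMMD protein family.

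Ap1g2 (ENSMUSG00000040701, GRCm38, chromosome 14, 55098575 to 55106593, minus strand) had 95.3, 92.9 and 98.8 CPM in the flox control and 71.2, 68.9 and 66.3 CPM in the heterozygous deletion. All heterozygous libraries lay below all controls. The log2 fold change was -0.48 ± 0.06 (SE) with an adjusted p of 0.0278 by edgeR. The homozygous deletion was lower again, at 40.1, 44.3 and 42.1 CPM, and the single Vav1-Cre-only library had 95.2 CPM, inside the flox control's range. Ap1g2 shares its locus with Thtpa and Gm20687 on the other strand, and the use of strand in counting was not given in the sources used here, so reads of these genes cannot be told apart. Its paralog Ap1g1, the widely expressed gamma subunit, had a log2 fold change of 0.02 (95% interval -0.14 to 0.19).

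Pdk1 (ENSMUSG00000006494, chromosome 2, 71873224 to 71903858, plus strand) had 145, 153 and 155 CPM in the flox control and 105, 107 and 115 CPM in the heterozygous deletion. The groups did not overlap, and the log2 fold change was -0.47 ± 0.06 (SE), with the same adjusted p of 0.0278 from edgeR. The homozygous deletion had 62.4, 66.8 and 64.5 CPM, and the Vav1-Cre-only library had 141 CPM, just below the lowest control. The related kinase gene Pdk3 had a log2 fold change of -0.10 (95% interval -0.28 to 0.08).

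Ctse (ENSMUSG00000004552, chromosome 1, 131638306 to 131675505, plus strand) had 11.3, 14.9 and 11.9 CPM in the flox control and 6.21, 5.97 and 5.77 CPM in the heterozygous deletion. Every heterozygous library was below every control, with a log2 fold change of -1.09 ± 0.14 (SE) and an adjusted p of 0.0278 by edgeR. The homozygous deletion had 2.01, 2.14 and 2.33 CPM, and the Vav1-Cre-only library had 13.4 CPM, within the control range.

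For these 3 genes the level fell from control to heterozygous and from heterozygous to homozygous deletion. Between the deletions the log2 fold change, homozygous minus heterozygous, was -0.71 for Ap1g2, -0.76 for Pdk1 and -1.47 for Ctse. The adjusted p-values from edgeR were 2.11e-05, 1.44e-05 and 4.82e-05. That comparison uses the same heterozygous libraries, and 42.3% of all genes tested passed in it. Both groups in it carry Vav1-Cre.

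**Figure D1:**
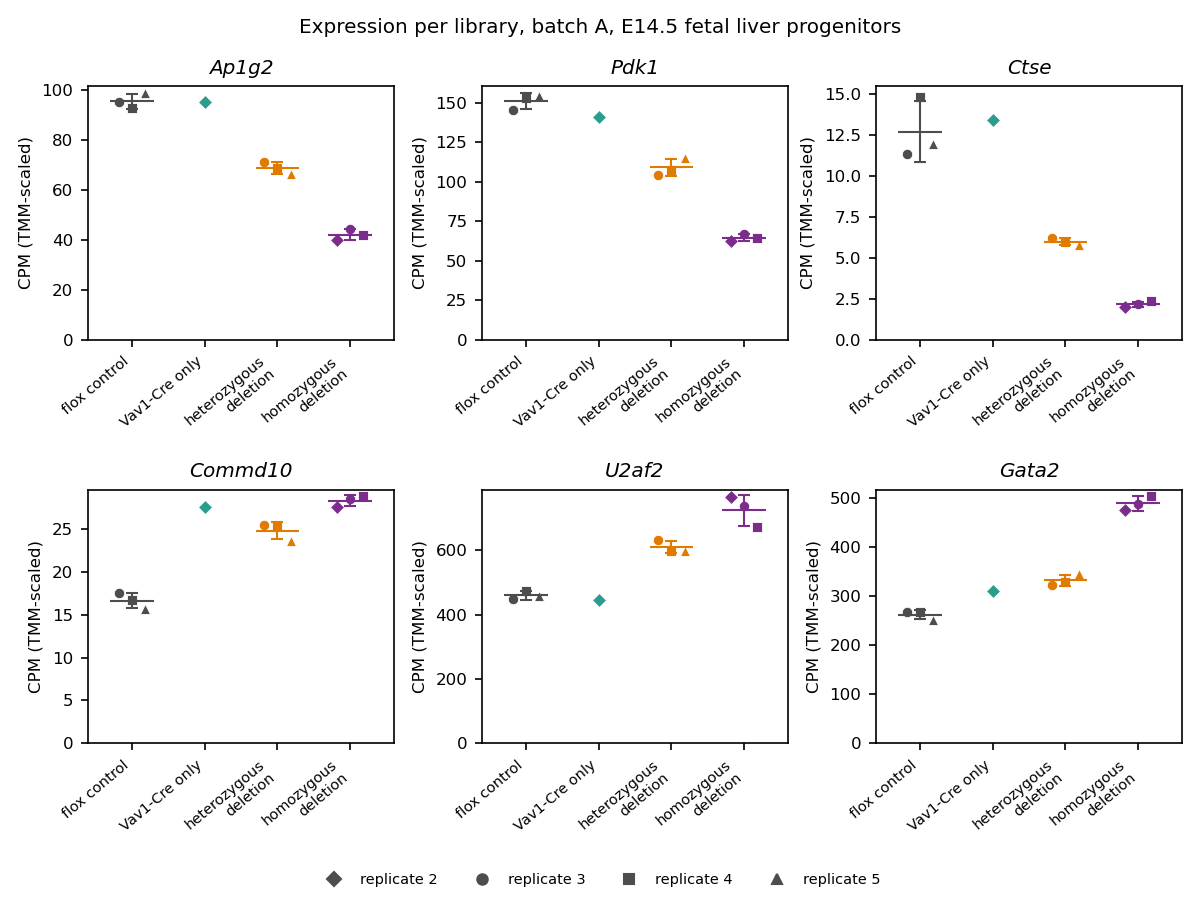
Each panel plots one gene in TMM-scaled CPM per library for 4 groups of batch A, with horizontal lines at the mean and bars of 1 SD (n = 3). The single Vav1-Cre-only library has no error bar. Ap1g2, Pdk1 and Ctse step down from flox control to homozygous deletion with the Vav1-Cre-only library at or near the control level, whereas Commd10 is already high in that library, at 27.6 CPM.

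Commd10 (ENSMUSG00000042705, chromosome 18, 46958816 to 47234284, plus strand) had 17.5, 16.7 and 15.7 CPM in the flox control and 25.6, 25.4 and 23.7 CPM in the heterozygous deletion. The groups did not overlap, and the log2 fold change was 0.58 ± 0.07 (SE) with an adjusted p of 0.0278 by edgeR. The homozygous deletion had 27.6, 28.6 and 28.9 CPM. Between the deletions the difference was 0.19 on the log2 scale (95% interval 0.03 to 0.35), with an adjusted p of 0.0566 in edgeR. Its span holds 4 further annotated genes in the same orientation and 1 in the opposite one, whose reads cannot be told apart from its own.

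The Vav1-Cre-only library, which has no floxed allele in its label, had 27.6 CPM of Commd10, above every heterozygous library. Over all 32 libraries, here as CPM of each library's unscaled total, Commd10 ran from 24.7 to 36.9 in the 12 fetal libraries with Vav1-Cre. It ran from 16.1 to 17.5 in the 3 fetal libraries without Cre and from 15.3 to 21.0 in the 17 adult libraries with Mx1-Cre. Every library with Vav1-Cre, from both batches and 5 groups, therefore lay above every library without it. As background, a widely used Vav1-iCre mouse line is registered as a transgene insertion at Commd10, and the labels do not name the line used here. When the Vav1-Cre-only library was added to the control group, Commd10 no longer passed. Its log2 fold change was then 0.36 in edgeR, and the other 3 genes still passed.

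**Figure D2:**
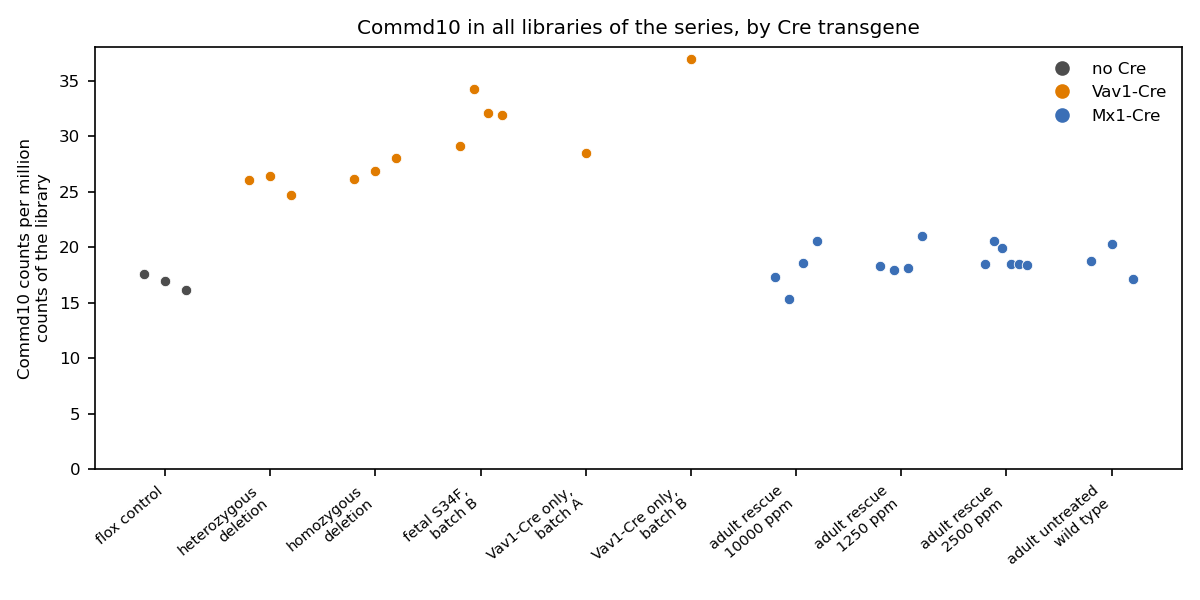
Each point is one library, with Commd10 CPM of the library's unscaled total on the vertical axis and groups of the series on the horizontal axis, coloured by Cre transgene. All 12 Vav1-Cre libraries lie between 24.7 and 36.9, above the 20 libraries with Mx1-Cre or no Cre, which reach at most 21.0.

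The genes next in order were 2 higher genes that did not pass. U2af2 (chromosome 7, 5062143 to 5079938, plus strand), the gene of U2AF1's partner, had 447, 473 and 458 CPM in the flox control and 631, 599 and 599 CPM in the heterozygous deletion. The groups were well apart, and the Vav1-Cre-only library had 445 CPM, below all controls. The log2 fold change was 0.41 ± 0.06 (SE, 95% interval 0.27 to 0.54), with an adjusted p of 0.0947 by edgeR. In the homozygous deletion U2af2 had 766, 737 and 671 CPM, a rise of 0.66 over the flox control (adjusted p = 3.29e-05 in edgeR) and of 0.25 over the heterozygous deletion (adjusted p = 0.00717 in edgeR). U2af2 passed in 6 of 20 alternative analyses, among them DESeq2, and with the Vav1-Cre-only library added to the controls.

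The list of 3′ splice-site recognition factors had 13 tested genes of 18, and none passed in edgeR, with 3 at an unadjusted p under 0.05, all higher, against 3.91% of all genes in that direction. DESeq2 called 1, U2af2. Of the 13, 4 were higher with no overlap between groups, against 8.44% of all genes tested, and 1 was lower with no overlap, against 7.52%. The 4 were U2af2, the branch-point factor gene Sf1, the minor-intron factor gene Zrsr2 and the SF3B subunit gene Sf3b1. Sf1 had 723, 724 and 743 CPM in the flox control and 866, 831 and 832 CPM in the heterozygous deletion, with 747 CPM in the Vav1-Cre-only library. That is a log2 difference of 0.21 ± 0.06 (SE), with an adjusted p of 0.370 in edgeR. Zrsr2 had a log2 difference of 0.26 and Sf3b1 one of 0.05 (95% interval -0.10 to 0.19). The 1 lower member, Sf3a3, differed by -0.04 and was named after its values were seen. The list's median was -0.04, beside 0.00137 over all genes tested.

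The other RNA-processing lists had medians near 0. No member of the SR and hnRNP list (20 tested), the core spliceosome list (23) or the nonsense-mediated decay list (15) passed in edgeR. Their medians were -0.04, -0.05 and -0.07. An unadjusted p under 0.05 was found for 2, 1 and 3 members, all lower, against 4.92% of all genes. DESeq2 called 1 member each of the first 2 lists and 0 of the decay list. Ptbp1, a splicing repressor gene, had 1141, 1174 and 1173 CPM in the flox control and 1265, 1215 and 1219 CPM in the heterozygous deletion, 0.09 apart on the log2 scale (95% interval -0.05 to 0.22). Hnrnpd, an RNA-binding protein gene, had 444, 429.8 and 424 CPM against 369, 347 and 357 CPM. Its groups did not overlap, and its difference of -0.27 had an adjusted p of 0.353 in edgeR. Rbm39, a splicing factor gene outside these lists, had 295, 277 and 275 CPM against 333, 347 and 354 CPM, a difference of 0.29 with an adjusted p of 0.353 in edgeR. The Vav1-Cre-only library sat on the control side for both, at 435 and 280.2 CPM.

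Gata2 (chromosome 6, 88193891 to 88207032, plus strand), a transcription factor gene of early progenitors and mast cells, had 267, 267 and 251 CPM in the flox control and 323, 329.6 and 345 CPM in the heterozygous deletion. The groups did not overlap, and the Vav1-Cre-only library had 310.5 CPM, nearer to the heterozygous libraries. The log2 difference was 0.34 ± 0.05 (SE), with an adjusted p of 0.108 by edgeR. The homozygous deletion had 476, 487 and 505 CPM, a rise of 0.90 with an adjusted p of 2.09e-06 in edgeR. Gata1, its counterpart in red-cell maturation, had 72.2, 138 and 137 CPM against 114, 105 and 105 CPM, with flox control replicate 3 below all others. Of the 15 tested erythroid and megakaryocyte transcription factors, none passed in edgeR, 2 had an unadjusted p under 0.05 and the median was 0.01. DESeq2 called 1, higher.

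Among lower genes that did not pass, Fcgrt came first. It encodes the neonatal Fc receptor, and had 7.16, 6.54 and 6.45 CPM in the flox control and 3.68, 2.88 and 3.43 CPM in the heterozygous deletion. The groups did not overlap, the Vav1-Cre-only library had 5.14 CPM, and the log2 difference of -1.01 ± 0.16 (SE) had an adjusted p of 0.127 in edgeR. Acat1, a mitochondrial enzyme of ketone and isoleucine breakdown, had 114, 109.5 and 106 CPM against 88.6, 80.9 and 78.1 CPM. Its Vav1-Cre-only value of 107 CPM lay in the control range, and its difference of -0.41 had an adjusted p of 0.261 in edgeR. Thbs1, which encodes the platelet and matrix protein thrombospondin 1, had 143, 156 and 161 CPM against 115, 107 and 107 CPM, with 152 CPM in the Vav1-Cre-only library. The groups did not overlap, and its difference of -0.48 had an adjusted p of 0.261 in edgeR. All 3 of these genes were, in the homozygous deletion, lower than the flox control and passed, by -3.21, -1.14 and -0.39 on the log2 scale. Of all genes tested, 22.4% passed as lower there. The 3 genes were picked by their values in these same control libraries, among others.

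The other 15 of the 20 next-ranked genes had adjusted p-values of 0.274 to 0.353 in edgeR. Their groups did not overlap, since the rule asked for that. Their log2 differences ran from 0.28 for Dab2ip to 1.03 for Ppp1r26 among the higher genes, and from -0.24 for Ppp1r7 to -2.09 for Cldn1 among the lower. Some had no like difference in the homozygous deletion. Ppp1r26, which encodes a regulatory subunit of a protein phosphatase, had 1.72, 1.40 and 1.68 CPM in the flox control, 3.16, 3.59 and 3.11 CPM in the heterozygous deletion and 1.67, 1.24 and 1.05 CPM in the homozygous deletion. Harbi1, derived from a transposase gene, had 13.6, 13.6 and 14.3 CPM, then 18.2, 19.003 and 18.2 CPM, then 14.3, 14.8 and 12.9 CPM in the same order. Both were higher in the heterozygous than in the homozygous deletion, with adjusted p-values of 0.00103 and 0.00364 in edgeR. That comparison reuses the heterozygous libraries by whose high values both genes were picked. Of all genes tested, 42.3% passed in it, 22.4% as lower in the homozygous deletion. The Vav1-Cre-only library had 2.50 CPM of Ppp1r26 and 14.53 CPM of Harbi1. Rbm3, a cold-inducible RNA-binding protein gene, had 408, 361 and 361 CPM against 327, 297 and 292 CPM, with 342 CPM in the Vav1-Cre-only library and a log2 difference of -0.30 in each deletion group against the flox control.

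Across all genes, 1120 (8.83%) had an unadjusted p under 0.05 where 633.9 would by chance. Of all genes tested, 496 (3.91%) were higher at that level and 624 (4.92%) lower. The 95% interval of the log2 fold change lay within 1 of zero in either direction for 9260 genes (73.0%), and its median half-width was 0.259. The estimate itself reached 1 in either direction for 559 genes, of which 191 were higher and 368 lower. In the homozygous deletion against the same control, 41% of genes passed. Both comparisons share the flox control libraries, so their values are only set side by side below.

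No p53 target passed the test. Of 27 tested members, 0 passed in edgeR or DESeq2 and 0 had an unadjusted p under 0.05, and the median log2 difference was 0.03, or 0.15 without flox control replicate 3. For the homozygous deletion the median was 0.47, with 17 members higher and 1 lower, against 18.5% and 22.4% of all genes. Cdkn1a, the p21 cell-cycle inhibitor gene, had 32.2, 14.3 and 14.4 CPM in the flox control, 25.5, 18.9 and 17.3 CPM in the heterozygous deletion and 69.6, 45.3 and 45.5 CPM in the homozygous deletion. The replicates numbered 3 were the highest of the first 2 groups. Bax, a pro-apoptotic effector gene, had 67.0, 66.2 and 68.9 CPM against 69.8, 67.3 and 64.3 CPM, with a 95% interval of -0.15 to 0.14 for the log2 difference. For Cdkn1a that interval was wide, -0.66 to 0.68. Of 14 Bcl2 family genes tested, none passed in edgeR or DESeq2 or had an unadjusted p under 0.05, and the median was -0.07.

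Stress programs likewise gave no calls. No member passed among 19 endoplasmic reticulum chaperones (median -0.07), 21 genes of the integrated stress response (-0.11), 27 interferon-stimulated genes (-0.08) or 9 heat-shock genes (-0.03) in edgeR, and none in DESeq2. Unadjusted p-values under 0.05 were found for 1, 3, 2 and 0 members, all lower, against 4.92% of all genes. Hspa5, which encodes the main chaperone of the endoplasmic reticulum, had 1539.7, 1190.3 and 1126 CPM against 1421, 1152 and 1001 CPM, with the replicates numbered 3 highest in both groups. Atf4, the transcription factor gene of the integrated stress response, had 340.0, 295 and 289 CPM against 303, 258 and 243 CPM, a difference of -0.20 with an adjusted p of 0.560 in edgeR. Homozygous deletion libraries had a different profile against the same controls: 17 of the 19 chaperones were higher and 18 of the 27 interferon-stimulated genes were lower, with medians of 0.56 and -1.35, where 18.5% of all genes were higher and 22.4% lower. In the heterozygous deletion the medians turned from lower to higher without flox control replicate 3, to 0.07 for the chaperones and 0.14 for the interferon-stimulated genes, and that of the heat-shock genes was -0.20 without heterozygous replicate 3.

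Mitosis genes were slightly lower. All 20 tested members had a log2 difference below 0, and 13 were lower with no overlap, against 7.52% of all genes. The median was -0.10 and the lowest was -0.19, for Plk1, a mitotic kinase gene with 257, 264 and 272 CPM in the flox control and 234, 237 and 226 CPM in the heterozygous deletion. None passed in edgeR or DESeq2, and 4 had an unadjusted p under 0.05, all lower, against 4.92% of all genes. The summed level of the list was 6021, 6479.6 and 6404 CPM in the flox control and 5687, 5952 and 5935 CPM in the heterozygous deletion. The Vav1-Cre-only library, at 5856 CPM, lay among the heterozygous libraries, and for all 13 members without overlap it was nearer to their mean than to that of the controls. Plk1 had 231 CPM there. Plk1 rose in the homozygous deletion, by 0.45 over the flox control (adjusted p = 0.000119 in edgeR). Replication licensing genes had a median of -0.07 with 0 of 21 passing in edgeR or DESeq2 and 2 at an unadjusted p under 0.05. Mki67, a proliferation marker, had 1566, 1961 and 1932 CPM against 1548, 1727 and 1758 CPM, and the groups overlapped.

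In glycolysis, Pdk1 was the 1 of 24 tested members to pass, in edgeR and in DESeq2 alike, and the list's median was -0.02. It was placed on the lists of glycolysis and hypoxia genes with its result known. Hk2, which encodes a hexokinase, had a log2 difference of 0.10 (95% interval -0.03 to 0.23). Egln3, a hypoxia-induced oxygen sensor gene, had 61.7, 53.3 and 54.2 CPM against 62.5, 60.9 and 68.4 CPM, 0.18 apart, with an adjusted p of 0.507 in edgeR. Of 33 respiratory chain genes 32 had a log2 difference below 0, with a median of -0.08 and none past the test in edgeR or DESeq2, 1 at an unadjusted p under 0.05. Ndufs1, a complex I subunit gene, was the lowest, at -0.17, with 135, 148 and 146 CPM against 126, 126 and 130.3 CPM and 130.2 CPM in the Vav1-Cre-only library. Cytosolic ribosomal proteins lay between -0.09 and 0.05 over 34 tested genes (22 of the 56 listed were not tested), and none passed in edgeR or DESeq2 or had an unadjusted p under 0.05. Rps14, a small-subunit ribosomal protein gene, had a 95% interval of -0.24 to 0.13.

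**Figure D3:**
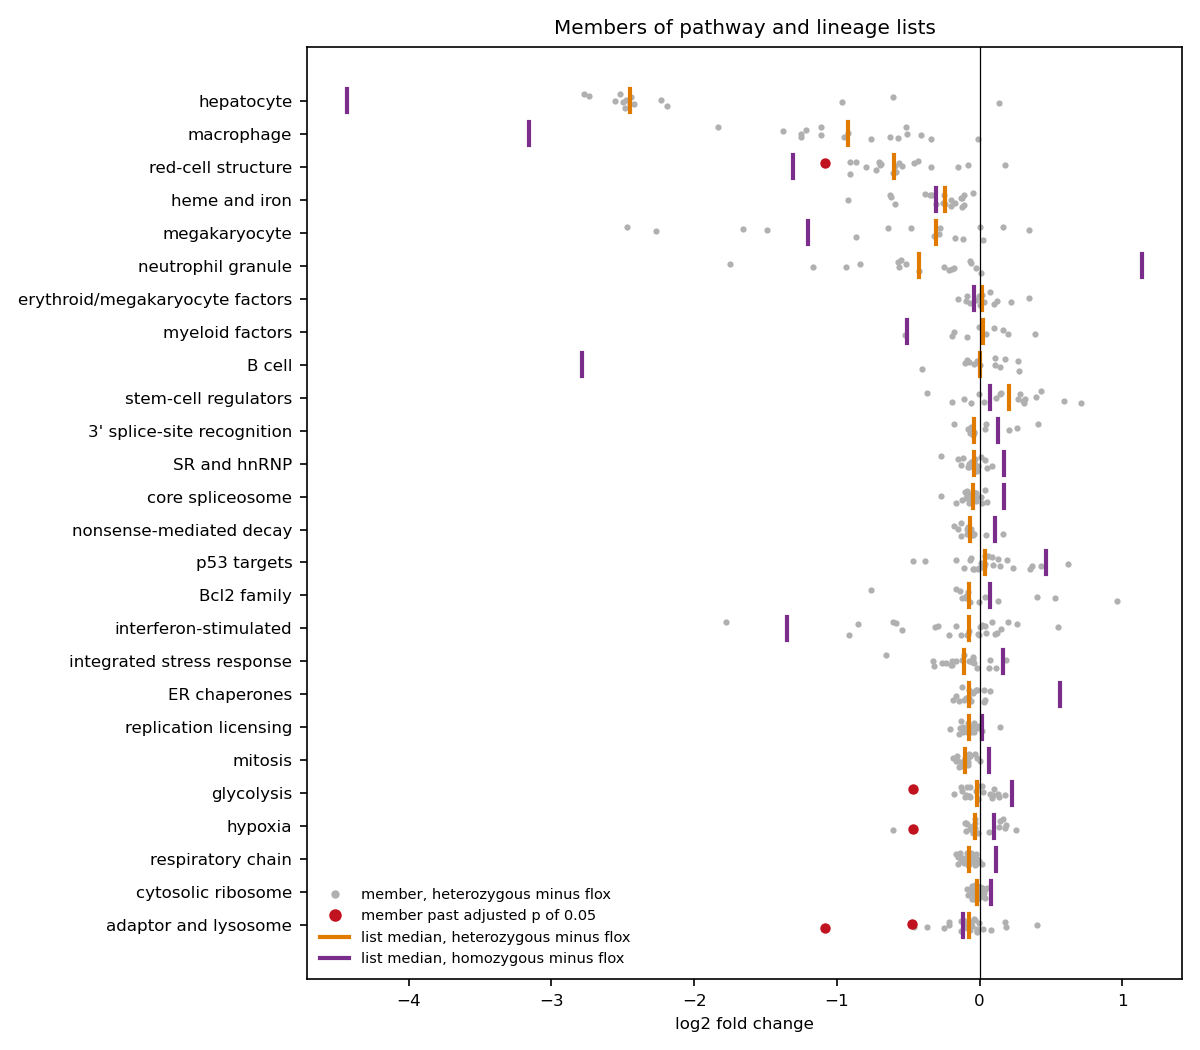
Each row is a list of pathway or lineage genes, and each point a tested member's log2 fold change, heterozygous deletion minus flox control. Red points passed an adjusted p of 0.05, and the vertical bars are list medians for the heterozygous (orange) and homozygous (purple) deletion. The orange medians farthest from 0 with all 6 libraries are those of the hepatocyte (-2.45), macrophage (-0.92), red-cell (-0.60), neutrophil granule (-0.43), megakaryocyte (-0.30), heme (-0.24) and stem-cell (0.21) lists, and the other 19 lie between -0.11 and 0.03.

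Most markers of macrophages and of hepatocytes, which surround progenitors in fetal liver, were lower, although none passed in edgeR. In bulk samples, fewer cells of a type and less RNA per cell cannot be told apart. Of 17 tested macrophage genes all had a log2 difference below 0, with a median of -0.92, and 16 had an unadjusted p under 0.05, against 4.92% of all genes in this direction. Without overlap, 14 were lower. None passed in edgeR, and DESeq2 called 6 as lower, against 0.564% of all genes. With no filter on low counts, edgeR called 12 of 18, all lower, against 0.895% of all genes. The summed level was 476, 438 and 445 CPM in the flox control and 351, 323 and 306 CPM in the heterozygous deletion, with no overlap, 406 CPM in the Vav1-Cre-only library and 133, 181 and 164 CPM in the homozygous deletion. Of these sums Csf1r alone gave 273, 237 and 231 CPM in the flox control and 186, 203 and 196 CPM in the heterozygous deletion. The sum thus rests largely on 1 gene.

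Axl, an efferocytosis receptor gene, had 18.2, 17.6 and 16.9 CPM against 14.0, 11.2 and 11.8 CPM, with 16.1 CPM in the Vav1-Cre-only library. Csf1r, the receptor gene for macrophage growth factor, had 273, 237 and 231 CPM against 186, 203 and 196 CPM, a difference of -0.34 ± 0.09 (SE), and the Vav1-Cre-only library had 211 CPM. Both pairs of groups were free of overlap, and both genes had an adjusted p of 0.353 in edgeR. C1qa, a complement gene of tissue macrophages, had 5.29, 6.45 and 7.001 CPM against 4.11, 1.86 and 1.92 CPM. Cd5l, a secreted macrophage protein gene, had 11.1, 9.27 and 11.8 CPM against 9.79, 3.06 and 2.11 CPM. For these last genes heterozygous replicate 3 was closer to the controls and replicates 4 and 5 were low. Without heterozygous replicate 3 the list's median was -1.38 and 3 members passed in edgeR, against 0.205% of all genes. Without flox control replicate 3 it was -0.97 and 1 passed, against 1.77%. In neither group was any of these 17 markers at 0.

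Against the flox control, 15 of the 17 macrophage genes fell in the homozygous deletion, with a median of -3.16, where 22.4% of all genes fell and 18.5% rose. The other 2, Vcam1 and Slc40a1, rose. Vcam1, an adhesion gene of the macrophages at the centre of erythroid islands, had 25.2, 19.8 and 22.9 CPM in the flox control and 16.2, 16.0 and 13.6 CPM in the heterozygous deletion, and rose to 25.6, 37.2 and 35.2 CPM in the homozygous deletion. Slc40a1, the iron exporter gene, had 25.6, 31.8 and 33.2 CPM, 23.2, 19.3 and 16.1 CPM, and 34.1, 51.0 and 48.1 CPM in the same order. Both were higher in the homozygous than in the heterozygous deletion, with adjusted p-values of 0.000229 and 0.000379 in edgeR. The Vav1-Cre-only library had 15.3 CPM of Vcam1, on the heterozygous side, and 27.4 CPM of Slc40a1, on the control side.

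Hepatocyte transcripts varied most between libraries. The median log2 difference of the 15 tested markers was -2.45, and 14 had an unadjusted p under 0.05, yet only 2, Trf and Ahsg, were free of overlap. Both were named after their values were seen. None of the 15 passed in edgeR, and DESeq2 called 1 as lower, against 0.564% of all genes. Alb, the albumin gene, had 43.3, 319 and 203 CPM in the flox control and 53.6, 21.7 and 21.2 CPM in the heterozygous deletion. Flox control replicate 3 and heterozygous replicate 3 were thus close to each other. The summed level was 168, 744 and 484 CPM against 189.9, 106 and 102 CPM, with 202 CPM in the Vav1-Cre-only library and no marker at 0. Without flox control replicate 3, 13 of the 15 passed in edgeR, against 1.77% of all genes, and the median was -2.90. Without heterozygous replicate 3, 0 of the 15 passed, although the median was -3.15. With no filter on low counts 13 passed, against 0.895%.

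Of 14 genes of endothelium and stroma tested, 6 were higher and 8 lower, and 0 passed in edgeR or DESeq2. An unadjusted p under 0.05 was found for 3, all lower, against 4.92% of all genes. The median was -0.22, or -0.42 without flox control replicate 3, while the summed level was 281, 285 and 273 CPM in the flox control and 282, 287 and 289 CPM in the heterozygous deletion. The member with the smallest p, Stab2, a gene of liver sinusoidal endothelium, had 2.64, 12.2 and 9.35 CPM against 4.48, 1.31 and 1.67 CPM. With a library's hepatocyte level as a covariate, the medians became -0.03 for the hepatocyte list, by construction, and -0.63 for the macrophage list. They became 0.24 for the red-cell list, 0.10 for the megakaryocyte list and 0.05 for the heme list, which turned from lower to higher. The covariate, the mean log2 level of the hepatocyte list, came from these same libraries and differed by group. It ran from 2.61 to 4.95 in the flox control, 1.59 to 2.93 in the heterozygous deletion and -0.66 to 1.08 in the homozygous deletion. This fit therefore cannot tell hepatocyte level and genotype apart. The part of the hepatocyte level in the results for other lineages was not tested.

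**Figure D4:**
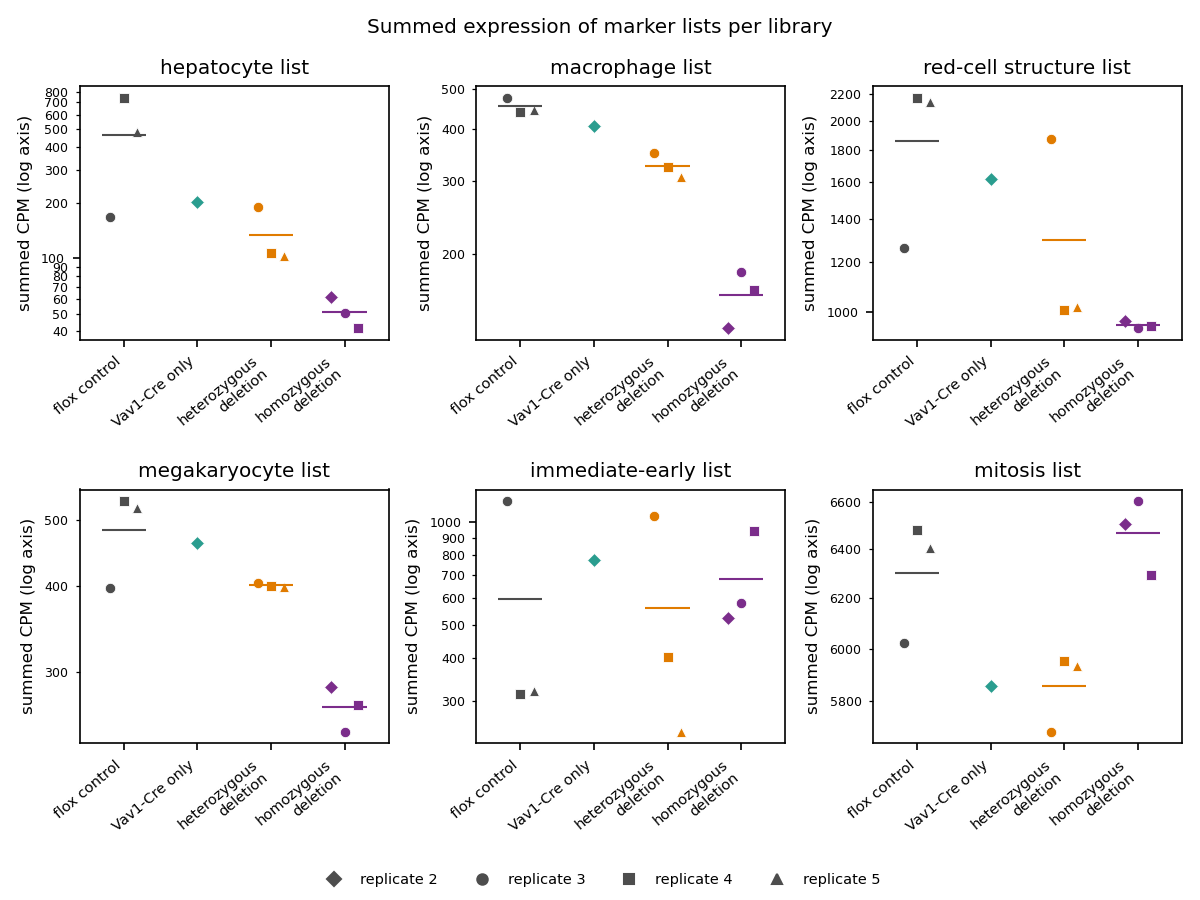
Panels plot the summed CPM of the tested members of 6 lists per library, on log axes, with a line at the mean of each group of 3 and shapes for replicate numbers. Macrophage sums separate the flox control (438 to 476) from the heterozygous deletion (306 to 351). Mitosis sums also separate them (6021 to 6479.6 against 5687 to 5952). Hepatocyte, red-cell, megakaryocyte and immediate-early sums overlap, with replicate 3 apart from replicates 4 and 5 in most panels.

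Most red-cell genes were lower in the heterozygous deletion without passing the test. The median of the 20 tested membrane and globin genes was -0.60, and 19 had a difference below 0. Ctse, placed on this list with its result known, was the 1 that passed. It was also the 1 without overlap, against 7.52% of all genes lower without overlap. An unadjusted p under 0.05 was found for 3, all lower, against 4.92% of all genes. The median was -0.94 without flox control replicate 3, where 5 passed as lower in edgeR against 1.77% of all genes, and -1.12 without heterozygous replicate 3, where 7 passed against 0.205%. With no filter on low counts 7 passed, against 0.895%. Slc4a1, the anion exchanger gene of the red-cell membrane, had 275, 375 and 341 CPM in the flox control and 361, 79.1 and 88.1 CPM in the heterozygous deletion. Hbb-bt, an adult beta-globin gene, had 137, 208 and 189.7 CPM against 225, 65.2 and 70.7 CPM. Its near-identical relatives make the split of reads between globin genes uncertain. For these 2 genes heterozygous replicates 4 and 5 were low and replicate 3 was in or above the control range, and the adjusted p-values were 0.630 and 0.727 in edgeR. Epor, the erythropoietin receptor gene, had 21.5, 56.8 and 61.0 CPM against 39.8, 31.7 and 31.5 CPM, where the low library was a control. Ctse differed from this pattern in its values: its 3 heterozygous libraries lay between 5.77 and 6.21 CPM, with replicate 3 as low as the others.

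Heme and iron genes were also lower. All 20 tested had a difference below 0, with a median of -0.24. An unadjusted p under 0.05 was found for 4, against 4.92% of all genes in this direction. None passed in edgeR, and DESeq2 called 1 as lower, against 0.564% of all genes. Without flox control replicate 3 the median was -0.38 and 3 passed as lower in edgeR, against 1.77% of all genes. Without heterozygous replicate 3 it was also -0.38 and 3 passed as lower, against 0.205%. Tfrc, the transferrin receptor gene, had 155, 207 and 207 CPM against 178, 98.0 and 94.5 CPM, and Alas2, the first enzyme gene of heme synthesis in red cells, had 27.9, 38.9 and 35.7 CPM against 39.9, 12.4 and 15.5 CPM. Heterozygous replicate 3 overlapped the controls for both. With both libraries numbered 3 left out, a choice made after seeing the data, 16 of the 20 heme genes, 17 of the 20 red-cell genes, 14 of the 15 hepatocyte genes and 10 of the 17 macrophage genes were lower and passed in edgeR, against 3.54% of all genes.

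Megakaryocyte genes differed among themselves. Of 16 tested, none passed in edgeR. An unadjusted p under 0.05 was found for 6, all lower, against 4.92% of all genes. DESeq2 called 2 as lower, against 0.564%. The median was -0.30. It was -0.52 without flox control replicate 3, where 4 passed as lower in edgeR, against 1.77% of all genes. Without heterozygous replicate 3 it was -0.30 and 1 passed as lower, against 0.205%. Pf4, a platelet granule protein gene, had 8.91, 24.4 and 23.9 CPM against 12.1, 4.24 and 4.06 CPM, with the library order seen for red-cell genes. Itga2b, an early megakaryocyte integrin gene, had 67.7, 98.1 and 94.5 CPM against 78.0, 91.3 and 91.3 CPM, a difference of 0.00 (95% interval -0.34 to 0.34). Against the same controls, 14 of the 16 passed as lower in the homozygous deletion, Itga2b among them, by -0.97, beside 22.4% of all genes.

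No gene of the myeloid and B-cell lists passed in the main edgeR fit or DESeq2. Of 10 myeloid transcription factors (median 0.02), 1 had an unadjusted p under 0.05. Of 17 neutrophil granule genes (median -0.43), 5 did, all lower, against 4.92% of all genes. Of 13 B-cell genes (median 0.00), 0 did. Irf8, a factor gene of monocyte and dendritic fate, had 226, 162 and 158 CPM in the flox control, 180.0, 190.1 and 193 CPM in the heterozygous deletion and 44.3, 48.5 and 37.7 CPM in the homozygous deletion. Pax5, the B-cell commitment factor gene, had 32.0, 10.9 and 13.3 CPM, then 23.4, 22.1 and 16.9 CPM, then 0.0406, 0.0330 and 0.0597 CPM in the same order, the last 3 values each under the level of 3 counts. For both, the flox control and heterozygous ranges overlapped and the homozygous libraries were far below. Without flox control replicate 3, the highest control for Irf8, Pax5 and Elane, the median of the neutrophil granule list was -0.01, that of the B-cell list 0.59 and that of the myeloid factors 0.24. Without heterozygous replicate 3 these medians were -0.50, -0.06 and 0.02 in the same order. In that fit 1 granule gene and 1 B-cell gene passed as lower in edgeR, against 0.205% of all genes. Without flox control replicate 3, 1 B-cell gene passed as higher, against 0.282%. With no filter on low counts 3 granule genes and 1 myeloid factor passed as lower, against 0.895%. Elane, the neutrophil elastase gene, had 1402, 807 and 792 CPM against 1078, 1070.5 and 802 CPM.

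Stem-cell regulators had a median of 0.21 over 18 tested genes, with none past the test in edgeR or DESeq2 and 2 at an unadjusted p under 0.05, both higher. The median was 0.05 without heterozygous replicate 3 and 0.43 without flox control replicate 3, where 1 passed in edgeR, against 0.282% of all genes in that direction. Meis1, a homeobox factor gene of stem and early progenitor cells, had 66.2, 70.3 and 71.4 CPM in the flox control and 82.5, 91.8 and 98.6 CPM in the heterozygous deletion. The groups did not overlap, the Vav1-Cre-only library had 85.3 CPM, and the difference of 0.39 had an adjusted p of 0.465 in edgeR. Meis1 was lower in the homozygous than in the heterozygous deletion, at 66.0, 42.0 and 44.2 CPM (adjusted p = 0.00110 in edgeR). Cd34, a surface marker gene of early progenitors, had a 95% interval of -0.27 to 0.33. Igf2bp3, a fetal RNA-binding protein gene, had 267, 240.4 and 238 CPM against 206, 214 and 215 CPM, without overlap, and a difference of -0.23 with an adjusted p of 0.353 in edgeR. Its Vav1-Cre-only value, 236 CPM, lay near the lowest control.

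Among mast cell, basophil and eosinophil genes, 19 were tested and none passed in edgeR. An unadjusted p under 0.05 was found for 3, all higher, against 3.91% of all genes. DESeq2 called 1, Gata2, which is also a member of this list. Cpa3, a mast cell protease gene, had 80.4, 64.2 and 58.5 CPM in the flox control and 53.6, 62.4 and 61.0 CPM in the heterozygous deletion, and the groups overlapped. The list's median was 0.02, or 0.24 without flox control replicate 3. For the homozygous deletion it was 0.75, with 10 members higher and 3 lower, beside 18.5% and 22.4% of all genes.

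Adaptor and lysosome genes included 2 that passed, Ap1g2 and Ctse, both placed on that list with their results known, among 29 tested. The median was -0.07, and without overlap 6 were lower and 2 higher, against 7.52% and 8.44% of all genes. Ctsd, the gene of the lysosomal protease cathepsin D, had 336, 286 and 289 CPM in the flox control and 292, 254 and 237 CPM in the heterozygous deletion. Its libraries overlapped, and its log2 difference of -0.22 had an adjusted p of 0.507 by edgeR. Of the other 7 genes tested on the list of COMMD proteins and their partners, none passed in edgeR or DESeq2 or had an unadjusted p under 0.05, and the lowest differed by -0.13.

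Lymphoid and antigen-presentation genes had no calls in the main edgeR fit or DESeq2. Of 12 T, NK and innate lymphoid genes 1 had an unadjusted p under 0.05, lower, and the median was 0.19, or 0.55 without flox control replicate 3. Tcf7, a T-cell factor gene, had 16.7, 11.5 and 10.7 CPM in the flox control, 14.8, 14.7 and 16.1 CPM in the heterozygous deletion. Of 8 MHC class II presentation genes 1 had an unadjusted p under 0.05, lower, and the median of -0.22 turned to 0.28 without flox control replicate 3. Cd74, the invariant chain gene, had 8.48, 2.98 and 3.28 CPM against 4.35, 3.60 and 4.18 CPM, with flox control replicate 3 above all others.

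Since the Vav1-Cre-only library carries the Cre without a floxed allele, its place was counted for all genes without overlap. That library differs from the flox control both in Cre and in floxed alleles. Of the 953 lower genes it lay on the control side, at or above the lowest control, for 41.4%, at or below the highest heterozygous library for 33.3%, and between for 25.3%. Of the 1070 higher genes it lay at or below the highest control for 44.0%, at or above the lowest heterozygous library for 34.5%, and between for 21.5%. It is 1 library with no replicate in its batch, so these shares describe it and were not tested.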

How the data were processed

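The authors' deposited table holds raw whole-number counts per Ensembl gene, 1 column per library, with 27728 genes, of which 27690 had a symbol in GENCODE M21 (GRCm38). Per the labels' design text, the authors mapped reads (pairs of 150 bases) with HISAT2 2.1.0. The counting tool, its use of strand and the filter on genes are not given in the sources used here. The 9 batch A libraries of the flox control, heterozygous and homozygous deletion were fitted in 1 model with edgeR 4.0.16 (R 4.3.3): filterByExpr, TMM, quasi-likelihood test, two-sided, Benjamini-Hochberg adjustment over all genes tested, called under 0.05. The flox and heterozygous libraries held 42810902 to 71251200 counts. At that depth 3 counts, taken as the smallest amount shown, equal 0.0404 to 0.0689 CPM, which covers counting error only. The comparison and the gene lists were chosen with earlier results of these data known, and the libraries by their labels.

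The 40 lists name 825 genes, of which 642 were tested, 15 had low counts and 168 were not analysed. No list was tested as a set, and lists are given by counts and medians. Named genes are every gene called, then the 10 higher and 10 lower genes with the smallest p that were not called, protein-coding, without overlap and with at least 50 mean counts, and key members and the member with the smallest p of each list. Others are marked as chosen after their values were seen. Alternatives were DESeq2 1.42.0, RLE factors, other filters, only the compared groups, each replicate left out, a replicate block and covariates. The fit was tested on simulated data. Within each group, every pair of replicates differed beyond counting noise (chi-square per degree of freedom 3.64 to 65.2). Splicing was not analysed here.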

Additional observations from a re-analysis of the deposited data

Results flagged for a closer look

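The single Vav1-Cre-only library of batch A is outside the tested comparison. In it, 7 of the 11 genes that were called higher or ranked next among the higher genes exceeded all 3 flox controls. This was common among the 1070 higher genes without overlap. For 34.5% of them that library lay at or above the lowest heterozygous library, and for 21.5% between the groups. Commd10 had 27.6 CPM there, against 15.7 to 17.5 CPM in the flox control, and Gata2 had 310.5 CPM against 251 to 267 CPM. Cbarp had 12.3 CPM against 7.08 to 7.62 CPM, and Dab2ip had 57.6 CPM against 49.5 to 51.1 CPM. Pcdh7 had 44.8 CPM against 30.9 to 38.4 CPM. Harbi1 had 14.53 CPM against 13.6 to 14.3 CPM, and Ppp1r26 had 2.50 CPM against 1.40 to 1.72 CPM. With 1 library there is no replicate check, and the part of Cre or of floxed alleles in these values was not tested.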

How the results depend on the processing

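The number of genes called, 4 in the main analysis, depended on the analysis, and the cause was not tested. It was 230 without a filter on low counts (28 higher, 202 lower), 99 with DESeq2 and 568 with both libraries numbered 3 left out together, chosen after seeing the data. It was 0 with only the 2 compared groups in the edgeR fit (1320 genes at an unadjusted p under 0.05), 0 with the hepatocyte score as a covariate (1281) and 0 with Y-linked reads as a covariate (911). With the replicate block it was 0 (1146). For flox control and heterozygous libraries of equal replicate number, the correlations of their deviations from the group means were -0.06, -0.16 and 0.09. For unequal numbers they ran from -0.06 to 0.13. The main fit did not treat equal numbers as pairs. Whether libraries of equal number shared handling was not tested. Leaving out 1 library gave from 0 to 269 calls: 269 without flox control replicate 3, 37 without heterozygous replicate 3 and 0 without any other of the 9 libraries, with 582 to 1314 genes at an unadjusted p under 0.05 in those. RLE factors and leaving out the most abundant genes gave the same 4 genes. All 24 top-ranked genes kept their direction in 20 of 20 alternatives. These genes had no overlap between the groups, and the alternatives reuse the same counts, so a kept direction was largely fixed in advance. Ap1g2, Pdk1 and Ctse passed in 9 and Commd10 in 8. For the homozygous deletion against flox control, 1290 genes passed with the hepatocyte covariate. For genes at or below about 3 counts per library, no level can be told from 0.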

Other observations

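Classes of transcripts other than protein-coding genes leaned higher in the heterozygous deletion by their median log2 difference, a pattern noticed after the values were seen. Among 382 tested gene models of the class TEC, which await experimental proof, the median log2 difference was 0.45, with 42 higher and 5 lower without overlap, 11.0% and 1.31%, against 8.44% and 7.52% of all genes. Among 201 lincRNAs the median was 0.25, with 29 higher and 4 lower without overlap, 14.4% and 1.99%. The lincRNA share of counts was not higher, however. It was 0.0312%, 0.0549% and 0.0442% in the flox control and 0.0326%, 0.0289% and 0.0284% in the heterozygous deletion. Among 10907 protein-coding genes the median was -0.01. TEC models held 0.0229%, 0.0267% and 0.0295% of counts in the flox control and 0.0252%, 0.0418% and 0.0422% in the heterozygous deletion, so that heterozygous replicate 3 lay within the control range. The Vav1-Cre-only library had 0.0374%. Without flox control replicate 3 the TEC median was 0.34 and without heterozygous replicate 3 it was 0.64.

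Reads of the Y-linked lincRNA Gm29650 were present in flox control replicates 3 and 4 (29 and 33 counts) and heterozygous replicate 5 (19 counts), with 0 counts in the other 3 of the 6 libraries. The groups thus differed in the number of libraries with such reads.

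Genes that lie near U2af1 on its chromosome showed 1 of 12 tested members higher at an unadjusted p under 0.05 and 1 lower, with a median of 0.02 and none past the test in edgeR or DESeq2.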
